A study of Homo sapiens with 24 samples.

Results

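The genes described here are 9 members of the Hedgehog signaling pathway: the ligand gene SHH, the receptor gene PTCH1, the antagonist gene HHIP, the co-receptor genes BOC, CDON and GAS1, and the transcription factor genes GLI1, GLI2 and GLI3. They were chosen by name and not by a rule on their values, though with earlier results of these data known. Each matched 1 of the 61551 Ensembl genes used from the count table. RNA was sequenced in 24 libraries from H9 cells, a human embryonic stem cell (ESC) line, with 3 libraries for each of 4 genotypes at each of 2 stages. HAR123 is a human accelerated region, a conserved element that changed quickly on the human lineage, and it lies in an intron of SMG6. The hHAR123 cells are unedited (WT) and keep the human element, the HAR123-KO cells carry a CRISPR deletion of it, and the cHAR123 and mHAR123 cells carry the chimpanzee or the mouse element in its place. ESC libraries came from untreated cells. Neuroectoderm (ECTO) libraries came from cells of the same genotypes grown for 5 days in KnockOut DMEM with 10% knockout serum replacement, Noggin (500 ng/ml), an antagonist of bone morphogenetic proteins, and SB431542 (10 μM), an inhibitor of activin and TGF-β type I receptors. No Hedgehog ligand or agonist is named in that protocol. The study states that RNA sequencing used 2 independent clones per genotype, but not which library came from which clone. With 3 libraries per condition, some of them must share a clone. The p-values here thus measure the spread between these libraries, which may be technical, and not that between independent clones.

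In the Hedgehog pathway, secreted ligands bind the receptor Patched, which otherwise holds the membrane protein Smoothened inactive at the primary cilium. BOC, CDON and GAS1 help present the ligand to Patched, whereas HHIP binds the ligand and keeps it from the receptor. Ligand binding frees Smoothened, which shifts the GLI proteins from repressor forms, mainly of GLI3, to activator forms, mainly of GLI2. GLI1, PTCH1 and HHIP are transcriptional targets of the pathway, and their RNA is commonly used as a readout of it. In the neural tube, SHH from the notochord and floor plate patterns ventral cell types, while bone morphogenetic proteins and WNTs pattern dorsal types and the neural crest.

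Total counts ranged from 23334732 to 35198684 in ESC libraries and from 21022748 to 25978892 in neuroectoderm libraries. By log2 CPM over 24303 genes, 23 of 24 libraries had a library of their own condition as nearest neighbor. Stage markers in hHAR123 cells followed the labels: the pluripotency genes POU5F1 and NANOG fell by 6.50 and 7.24 on the log2 scale (adjusted p = 6.86e-51 and 2.04e-44, edgeR quasi-likelihood test), and the neural genes PAX6 and SOX1 rose by 10.96 and 7.64 (adjusted p = 2.28e-49 and 2.5e-40). Counts of SMG6 do not cover the deleted intronic element and so do not check the genotype labels; SMG6 was at 78.4 ± 1.21 CPM (SD, n = 3) in hHAR123 ESCs and 71.1 ± 0.67 CPM in HAR123-KO ESCs. For neuroectoderm, the study's own gene lists for cHAR123 hold base means that match the columns labelled mHAR123, and its lists for mHAR123 match the columns labelled cHAR123, while the ESC lists match their labels. Values below follow the column labels, so in neuroectoderm the names cHAR123 and mHAR123 may be exchanged. With those columns exchanged, 1 call on these genes differed, that of HHIP between the stages, given below. In bulk RNA, fewer cells of a type and less RNA per cell cannot be told apart.

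The plot of CPM by library shows all 9 genes. CPM is a gene's count relative to the total count of its library, scaled so that each library has the same sum. A gene is said below to have risen or fallen, or to be called, when the edgeR quasi-likelihood test gave a Benjamini-Hochberg adjusted p under 0.01 over all genes tested and the fold change exceeded 2 (1 on the log2 scale). Errors of log2 fold changes are standard errors (SE).

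**Figure D1:**
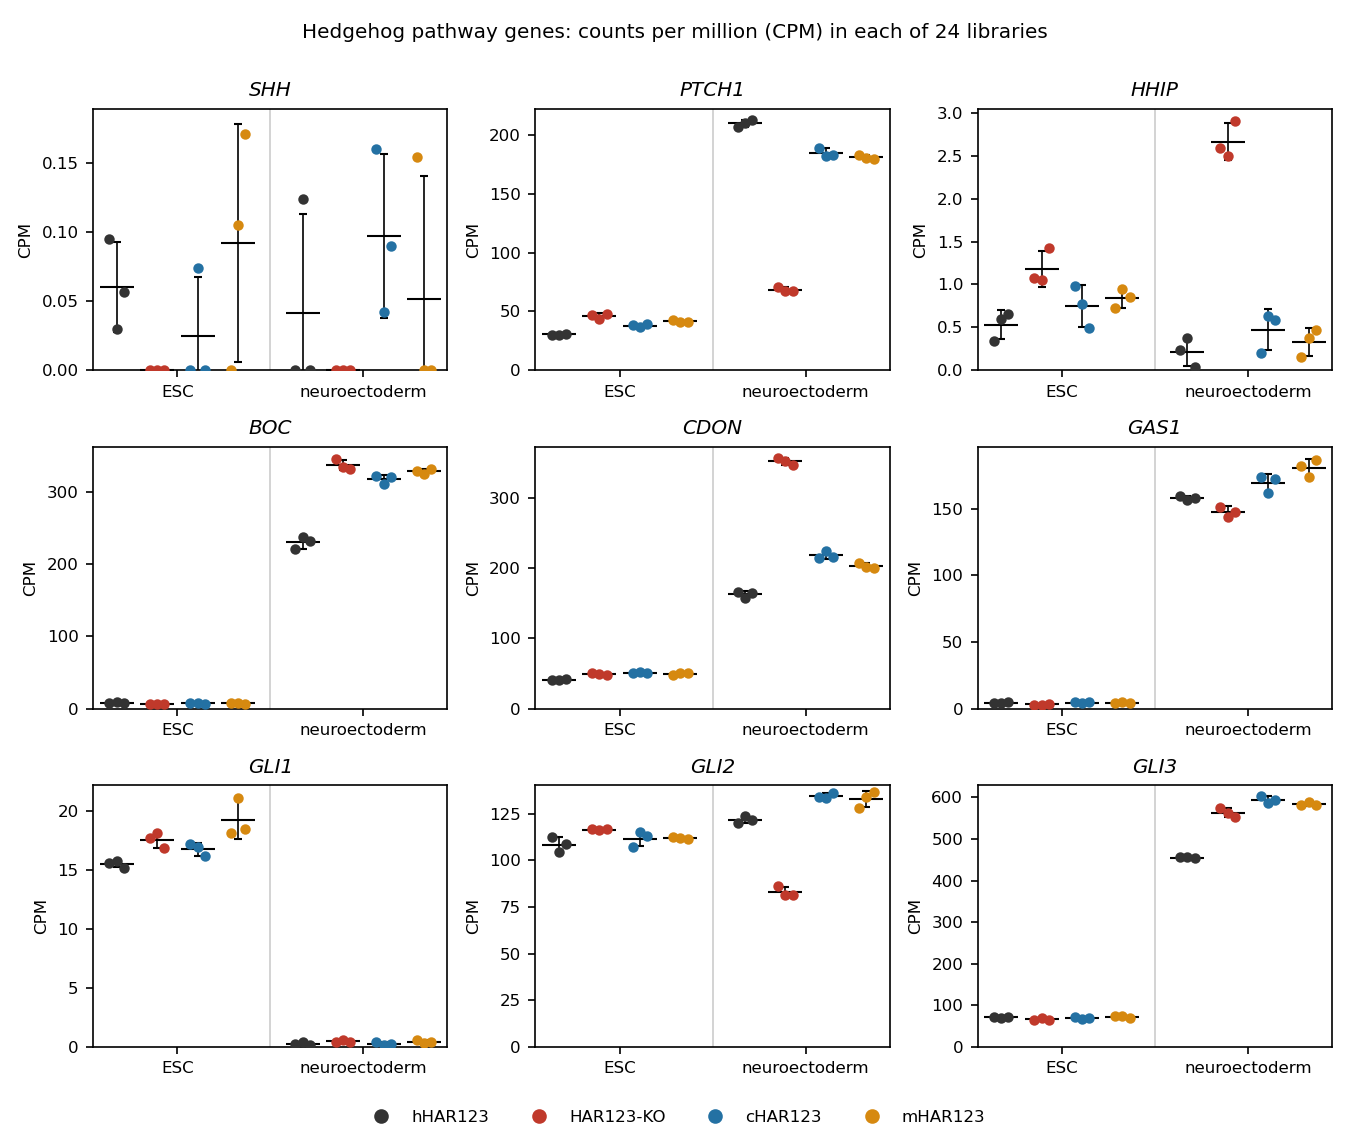
CPM (vertical axis, linear, a separate range for each gene) of the 9 Hedgehog pathway genes in 24 libraries; points are libraries, horizontal bars are means and whiskers are SD over 3 libraries. PTCH1 was at 206 to 212 CPM in hHAR123 neuroectoderm and 67.2 to 70.8 CPM in HAR123-KO neuroectoderm, HHIP and CDON were highest in HAR123-KO neuroectoderm, and GLI1 was below 1 CPM in every neuroectoderm library.

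SHH (chr7:155799980-155812463, minus strand, GRCh38), the ligand gene, was barely detected. Its counts were 3, 1 and 2 in hHAR123 ESCs, 0, 2 and 0 in cHAR123 ESCs and 0, 3 and 5 in mHAR123 ESCs. In neuroectoderm they were 0, 3 and 0 for hHAR123, 4, 1 and 2 for cHAR123 and 4, 0 and 0 for mHAR123. All 6 HAR123-KO libraries had a count of 0, which allows a level of up to 3 counts, or 0.0909 to 0.129 CPM. SHH did not pass the filter on low counts in any comparison, and a difference between genotypes was not detectable at this depth. The other Hedgehog ligand genes were also low. DHH, the desert hedgehog gene, had 6 to 14 counts in ESC libraries and 9 to 32 in neuroectoderm libraries, and IHH, the Indian hedgehog gene, had 0 to 15 counts in all libraries.

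The change from ESCs to neuroectoderm in unedited cells was examined first, since it sets the background for the edited genotypes. Of 8 members tested in hHAR123 cells, 5 rose (PTCH1, GLI3, BOC, CDON and GAS1) and 2 fell (GLI1 and HHIP). This stage change was broad: 45.9% of all genes tested were called in either direction, 24.6% higher and 21.2% lower. The co-receptor genes GAS1 and BOC moved furthest upward, by 4.83 ± 0.059 and 4.53 ± 0.053 on the log2 scale (adjusted p = 1.35e-41 and 3.84e-42). In HAR123-KO cells 5 of 8 members were called, in cHAR123 cells 6 and in mHAR123 cells 7, where 41.1%, 42.7% and 41.9% of genes were. In hHAR123 cells GLI1 moved furthest downward and fell by 6.15 ± 0.17 (adjusted p = 1.08e-29). The plot of changes between stages sets the genotypes side by side.

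**Figure D2:**
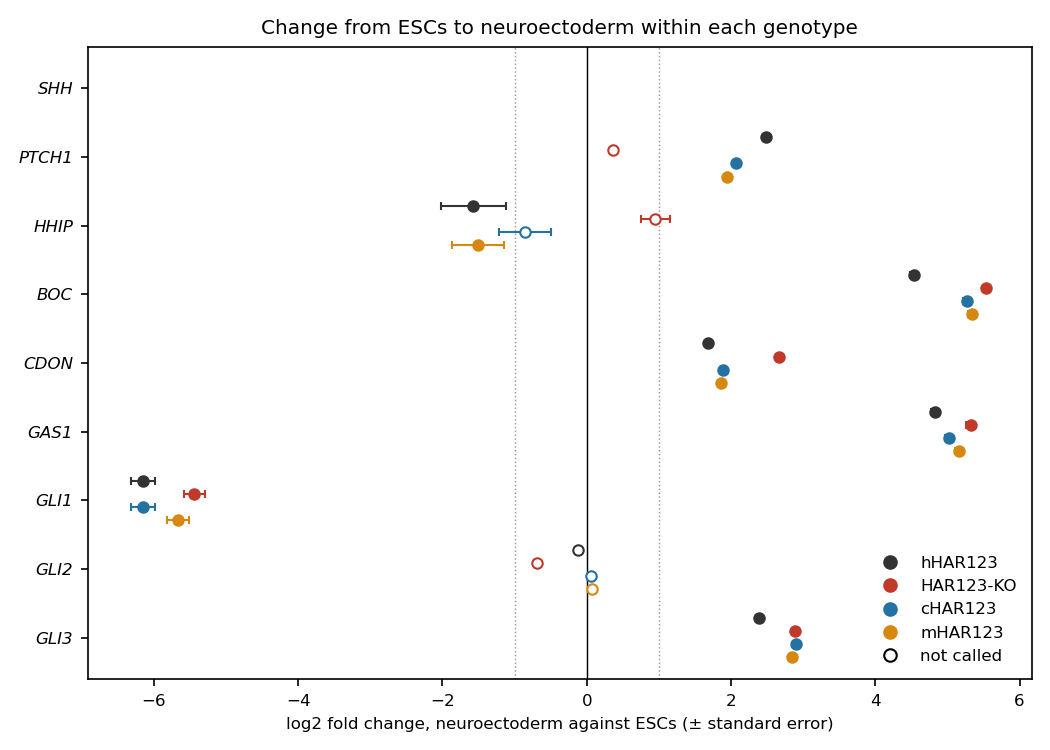
Log2 fold change from ESCs to neuroectoderm (horizontal axis; whiskers are standard errors) of each gene within each genotype; filled points are called, open points are not, and dotted lines mark a 2-fold change. In HAR123-KO cells PTCH1 lies at 0.37 where the other genotypes lie between 1.95 and 2.49, and HHIP lies to the right of 0 where the others lie to the left.

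PTCH1 (chr9:95442980-95517057, minus strand), the ligand receptor and a feedback target of the pathway, had the largest contrast between genotypes among the well-measured members. In hHAR123 ESCs its level was 30.1, 30.5 and 31.1 CPM, and in hHAR123 neuroectoderm 206, 210.3 and 212 CPM. HAR123-KO cells had 46.7, 43.8 and 48.0 CPM as ESCs and 70.8, 67.8 and 67.2 CPM as neuroectoderm. Thus the HAR123-KO libraries lay above the hHAR123 libraries in ESCs and below them in neuroectoderm, with no overlap at either stage. In neuroectoderm PTCH1 fell in HAR123-KO cells relative to hHAR123 cells, by 1.56 ± 0.037 on the log2 scale (adjusted p = 8.81e-38), and leaving out any library gave values from -1.59 to -1.54. In ESCs it was higher by 0.58 ± 0.047 (adjusted p = 5.21e-13), below the 2-fold threshold. From ESCs to neuroectoderm PTCH1 rose by 2.49 ± 0.039 in hHAR123, 2.07 ± 0.036 in cHAR123 and 1.95 ± 0.037 in mHAR123 cells (adjusted p = 7.37e-38, 9.42e-39 and 4.46e-48). In HAR123-KO cells it was 0.37 ± 0.043 higher (adjusted p = 9.52e-12), below the 2-fold threshold. The difference between the stage changes of HAR123-KO and hHAR123 cells was itself called, at -2.14 ± 0.058 (adjusted p = 7.53e-34), in a comparison in which 7.87% of genes were called.

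A stretch upstream of a PTCH1 start site is shown because GLI proteins, 3 of the members, bind DNA at the motif GACCACCCA. RefSeq promoter windows (GRCh38.p14, 250 bases before to 50 after a start) were at hand for 7 members, 15 windows in all. GACCACCCA or its reverse complement TGGGTGGTC was in 1 of the 15, at a PTCH1 start, and in 83 of 35116 windows of all genes (0.236%). The 250 bases before that start are at chr9:95509267-95509516, within an intron of longer PTCH1 transcripts. They are given 5′ to 3′ on the minus strand, and capitals mark the reverse complement of the motif, which begins 172 bases before the start.

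PTCH1 upstream: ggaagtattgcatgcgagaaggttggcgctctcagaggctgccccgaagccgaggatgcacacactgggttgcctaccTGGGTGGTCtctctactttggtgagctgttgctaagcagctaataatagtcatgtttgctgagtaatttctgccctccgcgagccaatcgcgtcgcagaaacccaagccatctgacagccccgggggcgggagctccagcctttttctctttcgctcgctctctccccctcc

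The shorter core CCACCC, on either strand and contained in the motif, was in 6 of the 15 member windows and in 34.3% of all windows. Those 6 windows belong to 4 members (CDON, GLI2, HHIP and PTCH1), and a member can have several windows. A match of letters is a description of the sequence and not a measured binding site.

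HHIP (chr4:144646156-144745271, plus strand), whose product binds and sequesters Hedgehog ligands, was low but distinct in the HAR123-KO libraries. Its counts were 5, 9 and 1 in hHAR123 neuroectoderm, 5, 15 and 13 in cHAR123, 4, 9 and 11 in mHAR123 and 60, 60 and 71 in HAR123-KO neuroectoderm. The HAR123-KO libraries were therefore at 2.58, 2.497 and 2.90 CPM, and no other neuroectoderm library exceeded 0.634 CPM. HHIP rose in HAR123-KO relative to hHAR123 neuroectoderm by 3.63 ± 0.32 on the log2 scale (adjusted p = 4.09e-14). Values with each library left out ran from 3.13, without hHAR123 neuroectoderm replicate 3, to 4.30, without replicate 2. HHIP passed the filter on low counts in this comparison through the HAR123-KO libraries alone. In ESCs the counts were 11, 20 and 23 in hHAR123 cells and 25, 31 and 47 in HAR123-KO cells, and HHIP rose by 1.13 ± 0.27 (adjusted p = 0.00217). That call was lost without hHAR123 ESC replicate 1 (0.91, adjusted p = 0.0247), without HAR123-KO ESC replicate 3 (0.94, adjusted p = 0.0335) and with DESeq2 (1.12, adjusted p = 0.0411). HHIP was the only member called in that comparison, 1 of 8 tested, where 1.18% of all genes were called.

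Between the stages HHIP went opposite ways in the genotypes. It fell by 1.57 ± 0.45 in hHAR123 cells (adjusted p = 0.00157) and by 1.51 ± 0.36 in mHAR123 cells (adjusted p = 0.000132). The hHAR123 call was lost without hHAR123 neuroectoderm replicate 3 (-1.09, adjusted p = 0.0301) and with DESeq2 (-1.65, adjusted p = 0.0304). In cHAR123 cells the change was -0.86 ± 0.36 (adjusted p = 0.0262), and with the neuroectoderm columns of cHAR123 and mHAR123 exchanged it was -1.32 (adjusted p = 0.00172) and called. In HAR123-KO cells it was 0.95 ± 0.20 (adjusted p = 2.03e-05), which became a call without HAR123-KO ESC replicate 3 (1.12, adjusted p = 9.6e-06). The difference between the stage changes of HAR123-KO and hHAR123 cells was called for HHIP, at 2.496 ± 0.48 (adjusted p = 2.51e-05). HHIP shares 712 bases of its exons with HHIP-AS1, an antisense gene on the opposite strand. Whether reads were counted by strand is not stated in the sources used here, so reads of this pair may not be separated there. HHIP-AS1 was at 1.60 ± 0.35 CPM (SD, n = 3) in HAR123-KO neuroectoderm and 0.854 ± 0.23 CPM in hHAR123 neuroectoderm.

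CDON (chr11:125955796-126063335, minus strand), which encodes an immunoglobulin-superfamily co-receptor of Hedgehog ligands, was the other member that rose. Its levels in neuroectoderm were 165, 157 and 164 CPM in hHAR123, 356, 352 and 347 CPM in HAR123-KO, 214, 225 and 215 CPM in cHAR123 and 207, 202 and 199 CPM in mHAR123 libraries. No 2 genotypes overlapped, with HAR123-KO highest and hHAR123 lowest. CDON rose in HAR123-KO relative to hHAR123 neuroectoderm by 1.17 ± 0.032 (adjusted p = 6.01e-35), from 1.14 to 1.18 with each library left out. Of 7 members tested in this comparison, CDON was called higher and PTCH1 lower, and HHIP, which had entered the test through the HAR123-KO libraries, was called higher as well. Among all genes tested 9.45% were called, 4.92% higher and 4.52% lower. Relative to hHAR123, CDON was 0.44 ± 0.032 higher in cHAR123 and 0.36 ± 0.035 higher in mHAR123 neuroectoderm (adjusted p = 1.84e-14 and 1.76e-10), both below the 2-fold threshold. ESC levels were 41.3 ± 0.55 CPM in hHAR123 and 48.6 ± 1.47 CPM in HAR123-KO cells (SD, n = 3), a log2 difference of 0.21 ± 0.041 (adjusted p = 0.000137). CDON rose from ESCs to neuroectoderm in every genotype, by 1.68 ± 0.038 in hHAR123 and 2.66 ± 0.032 in HAR123-KO cells (adjusted p = 2.12e-32 and 8.72e-60). The difference between those 2 changes was 0.95 ± 0.049 (adjusted p = 2.24e-22), just under the 2-fold threshold. An opposite-strand gene, VSIG10L2, shares 2831 exon bases with CDON but had at most 2 counts in any library.

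BOC (chr3:113211003-113287459, plus strand), a co-receptor related to CDON, was higher in all 3 edited genotypes in neuroectoderm. hHAR123 neuroectoderm had 221, 238 and 233 CPM, and the 9 edited libraries had 311 to 346 CPM, with no overlap. Relative to hHAR123 the difference was 0.60 ± 0.032 in HAR123-KO, 0.48 ± 0.031 in cHAR123 and 0.56 ± 0.035 in mHAR123 cells (adjusted p = 3.25e-22, 4.83e-16 and 8.1e-16), all below the 2-fold threshold. In ESCs BOC was at 8.15 ± 0.79 CPM in hHAR123 and 6.35 ± 0.19 CPM in HAR123-KO cells (SD, n = 3), a difference of -0.38 ± 0.094 (adjusted p = 0.00241). Its rise between stages was thus larger in HAR123-KO cells, 5.53 ± 0.045 against 4.53 ± 0.053, and the difference of 0.98 ± 0.089 (adjusted p = 2.8e-13) crossed the 2-fold threshold without hHAR123 ESC replicate 3 (1.04) or without hHAR123 neuroectoderm replicate 2 (1.004). BOC shares 530 exon bases with CFAP44 on the opposite strand.

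GAS1 (chr9:86944362-86947506, minus strand), the glycosylphosphatidylinositol-anchored co-receptor, had the smallest difference between HAR123-KO and hHAR123 neuroectoderm among the 7 members tested. Neuroectoderm libraries had 159, 157 and 158 CPM in hHAR123 and 152, 144 and 148 CPM in HAR123-KO cells, a log2 difference of -0.05 ± 0.034 (adjusted p = 0.263). In ESCs it was low, 65 to 183 counts in hHAR123 and HAR123-KO libraries, and was 0.53 ± 0.13 lower in HAR123-KO cells (adjusted p = 0.00275), below the 2-fold threshold. GAS1 rose between stages in each genotype, by 4.83 to 5.32 on the log2 scale.

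Levels of different genes were compared as TPM, which divides each count by the gene's exon length before the libraries are scaled to the same sum. The 3 co-receptor genes together were at 7.79 ± 0.60 TPM (SD, n = 3) in hHAR123 ESCs and 152 ± 4.85 TPM in hHAR123 neuroectoderm. Among them CDON held the largest share in hHAR123 ESCs (48.2% ± 2.0) and the smallest in hHAR123 neuroectoderm (10.1% ± 0.28), where GAS1 held 62.3% ± 0.72. In HAR123-KO neuroectoderm GAS1 held 48.3% ± 0.55, BOC 33.6% ± 0.33 and CDON 18.1% ± 0.26 of a sum of 170 ± 5.54 TPM. The ranges of each share in HAR123-KO and hHAR123 neuroectoderm did not overlap.

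Among the transcription factor genes, GLI1 (chr12:57459785-57472268, plus strand), an activator that is itself a target of the pathway, was a gene of the ESC stage in these data. Its ESC level was 15.6, 15.8 and 15.2 CPM in hHAR123, 17.7, 18.2 and 16.9 CPM in HAR123-KO, 17.2, 17.0 and 16.2 CPM in cHAR123 and 18.1, 21.2 and 18.5 CPM in mHAR123 libraries. All edited libraries lay above the 3 hHAR123 libraries, and the log2 difference was 0.16 ± 0.063 in HAR123-KO, 0.08 ± 0.063 in cHAR123 and 0.27 ± 0.063 in mHAR123 ESCs (adjusted p = 0.0697, 0.376 and 0.000975). In neuroectoderm GLI1 had 4 to 15 counts in all 12 libraries: 5, 9 and 4 in hHAR123 and 9, 14 and 10 in HAR123-KO cells. It did not pass the filter between genotypes there, and a difference was not detectable at this depth. GLI1 fell between stages in every genotype, with a log2 change of -6.15 ± 0.17 in hHAR123, -5.44 ± 0.15 in HAR123-KO, -6.15 ± 0.17 in cHAR123 and -5.66 ± 0.15 in mHAR123 cells (adjusted p = 1.08e-29, 1.13e-40, 1.16e-31 and 3.38e-40). Hence GLI1 and PTCH1, both used as readouts of the pathway, went in opposite directions between the stages in hHAR123, cHAR123 and mHAR123 cells.

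GLI2 (chr2:120735623-120992653, plus strand), which encodes the main GLI activator, ranged from 104 to 117 CPM over all ESC libraries. In neuroectoderm it was at 120.0, 124 and 122 CPM in hHAR123 and 86.3, 81.6 and 81.5 CPM in HAR123-KO libraries, which did not overlap. The log2 difference was -0.50 ± 0.038 (adjusted p = 2.21e-16), below the 2-fold threshold. Of the 8 members tested between the stages, GLI2 was the one called in no genotype: its change was -0.12 ± 0.037 in hHAR123, -0.69 ± 0.034 in HAR123-KO, 0.06 ± 0.034 in cHAR123 and 0.08 ± 0.034 in mHAR123 cells (adjusted p = 0.00233, 2.92e-27, 0.0787 and 0.0333). The difference between HAR123-KO and hHAR123 in this change was -0.59 ± 0.050 (adjusted p = 3.11e-14).

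GLI3 (chr7:41960949-42264100, minus strand), which encodes the main GLI repressor, rose between the stages in every genotype, by 2.38 ± 0.033 in hHAR123, 2.88 ± 0.030 in HAR123-KO, 2.91 ± 0.030 in cHAR123 and 2.85 ± 0.032 in mHAR123 cells (adjusted p = 1.24e-39, 4.48e-63, 1.76e-47 and 4.64e-60). Neuroectoderm levels were 456, 456 and 453 CPM in hHAR123 and 574, 563 and 553 CPM in HAR123-KO libraries, and 581 to 602 CPM in the 6 replacement libraries. The 9 edited libraries lay above the hHAR123 libraries. Relative to hHAR123 the log2 difference was 0.36 ± 0.028 in HAR123-KO, 0.40 ± 0.025 in cHAR123 and 0.40 ± 0.030 in mHAR123 neuroectoderm (adjusted p = 4.2e-16, 2.72e-16 and 1.25e-13), below the 2-fold threshold.

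By TPM, the make-up of the GLI genes turned over between the stages. In hHAR123 ESCs GLI2 held 62.1% ± 0.67 (SD, n = 3), GLI3 22.8% ± 0.20 and GLI1 15.1% ± 0.55 of a sum of 40.9 ± 0.81 TPM. In hHAR123 neuroectoderm GLI3 held 67.6% ± 0.34, GLI2 32.3% ± 0.31 and GLI1 0.117% ± 0.045 of 91.6 ± 2.71 TPM. HAR123-KO neuroectoderm had a like sum, 90.6 ± 3.12 TPM, of which GLI3 held 79.0% ± 0.26 and GLI2 20.8% ± 0.31. The replacement genotypes had higher sums, 114 ± 2.63 TPM in cHAR123 and 111 ± 3.36 TPM in mHAR123, and GLI3 shares of 71.1% ± 0.27 and 71.0% ± 0.63. The GLI3 share of each HAR123-KO library (78.7% to 79.2%) lay above that of every other neuroectoderm library (67.3% to 71.5%).

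**Figure D3:**
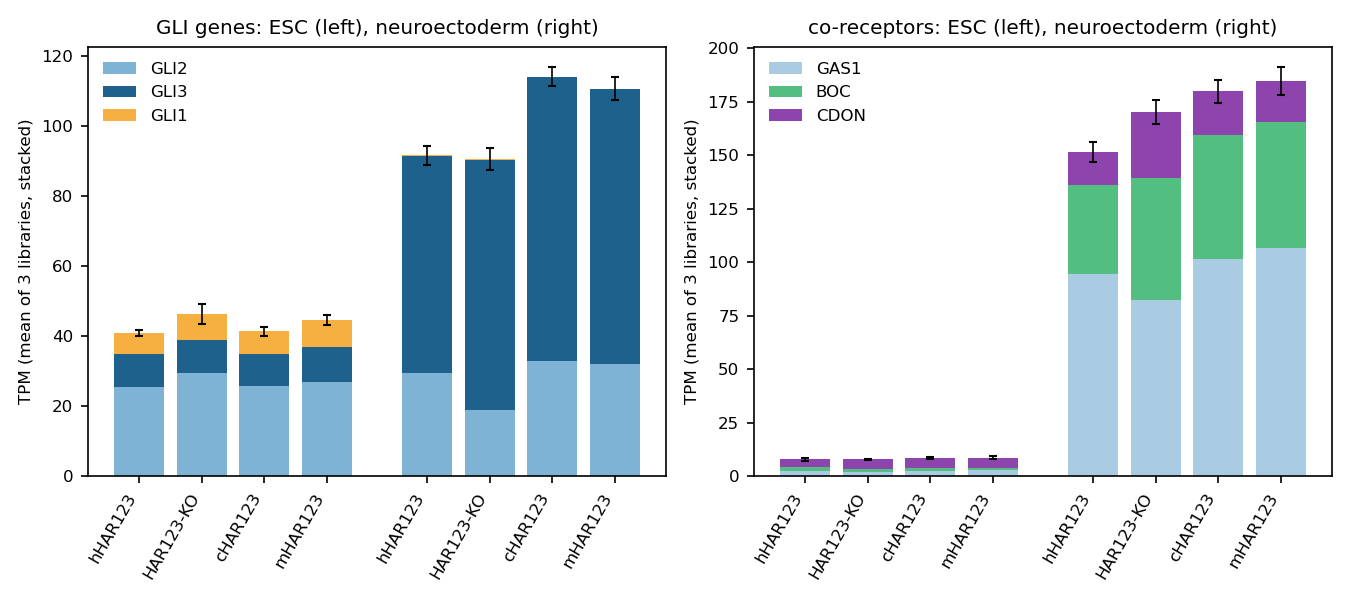
Summed TPM (vertical axis from 0) of the GLI genes (left) and of the co-receptor genes (right) in each genotype and stage; stacked segments are means of 3 libraries and whiskers are the SD of the sum. GLI3 takes over from GLI2 as the largest segment in neuroectoderm. Its share of the sum is highest in HAR123-KO, but its segment is larger in cHAR123 (81.2 TPM) than in HAR123-KO (71.5 TPM). The co-receptor sum goes from 7.79 to 152 TPM in hHAR123 cells.

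None of the members was called with edgeR or DESeq2 in cHAR123 or mHAR123 cells relative to hHAR123 at either stage. Of all genes, 0.85% and 1.23% were called in ESCs, for cHAR123 and mHAR123 in turn, and 0.978% and 1.03% in neuroectoderm. At an unadjusted p under 0.05, 4 and 5 of 8 members passed in cHAR123 and mHAR123 ESCs, where 36.9% and 38.5% of all genes did, and 6 of 6 in each in neuroectoderm, where 29% and 33.8% did. By adjusted p under 0.01 alone, 2 of 8 tested members differed in cHAR123 ESCs and 3 of 8 in mHAR123 ESCs, where 16.3% and 19.2% of genes did. In neuroectoderm 5 of 6 tested members differed in cHAR123 and 6 of 6 in mHAR123, where 9.89% and 14% of genes did. These 6 members had 2523 to 15092 counts in each library compared there. The shares of all genes cover every gene that passed the filter on low counts and are not matched for depth. PTCH1 was the member that was lower in both, with a log2 difference of -0.17 ± 0.031 in cHAR123 and -0.17 ± 0.034 in mHAR123 neuroectoderm (adjusted p = 0.000102 and 0.000226). The stage changes of cHAR123 and mHAR123 cells gave no called difference from those of hHAR123 cells with either tool, where 0.797% and 0.967% of genes were called. At an unadjusted p under 0.05, 5 and 6 of 8 passed, and 27.5% and 30.7% of all genes. Between mHAR123 and cHAR123 none was called with either tool, with 0.158% of genes called in ESCs and 0.261% in neuroectoderm. At an unadjusted p under 0.05, 2 of 8 members and 9.26% of all genes passed in ESCs, and 3 of 7 and 19.1% in neuroectoderm. In neuroectoderm PTCH1 was higher in both replacement genotypes than in HAR123-KO cells, by 1.42 ± 0.030 in cHAR123 and 1.41 ± 0.034 in mHAR123 (adjusted p = 2.6e-46 and 3.04e-35), and HHIP was lower, at -2.51 ± 0.26 and -2.99 ± 0.28 (adjusted p = 1.28e-12 and 1.21e-12). HHIP entered these tests through the HAR123-KO libraries, with 60 to 71 counts against 4 to 15 in the replacement libraries. No other member of the 7 tested was called in either comparison, where 7.61% and 7.33% of genes were. CDON differed from HAR123-KO cells by -0.70 ± 0.023 and -0.78 ± 0.027 on the log2 scale (adjusted p = 7.78e-36 and 2e-28), below the threshold. In ESCs no member was called with either tool between the replacement genotypes and HAR123-KO, with 0.271% and 0.244% of genes called. At an unadjusted p under 0.05, 3 and 5 of 8 passed there, and 27.8% and 27.1% of all genes. The comparisons with hHAR123 share its libraries, as those with HAR123-KO share theirs.

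**Figure D4:**
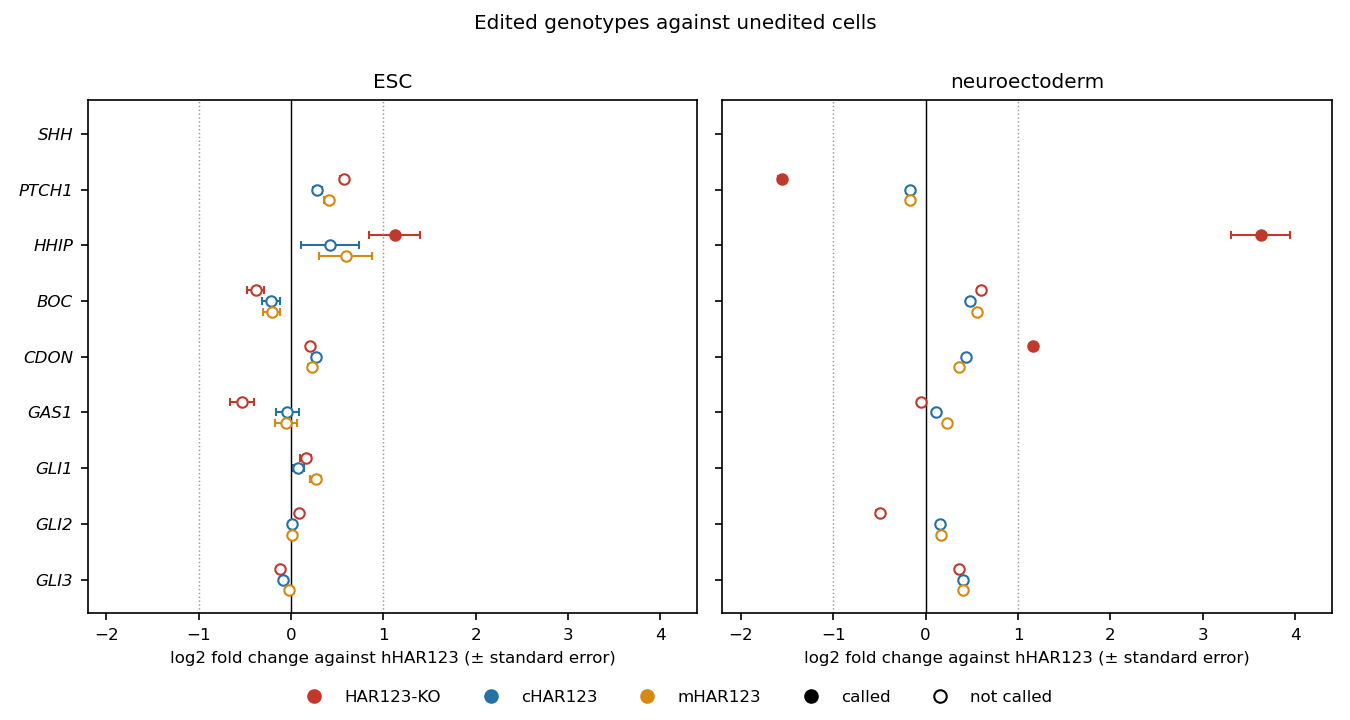
Log2 fold change of each edited genotype against hHAR123 (horizontal axis; whiskers are standard errors) in ESCs (left) and neuroectoderm (right); filled points are called, open points are not, dotted lines mark a 2-fold change, and genes with no point did not pass the filter on low counts. The called points are HHIP in HAR123-KO ESCs and PTCH1, HHIP and CDON in HAR123-KO neuroectoderm.

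The wider pathway was examined with 32 further genes in 4 lists: other ligands and their release, other receptor-level genes, GLI processing and kinases, and transport in the primary cilium. In HAR123-KO relative to hHAR123 neuroectoderm none of 31 tested rose and 2 fell, close to the 4.52% of all genes that fell, with a median log2 fold change of -0.12 against 0.000925 over all genes tested. The 2 were GPC3, a glypican that competes with Patched for the ligand, which fell by 1.93 ± 0.034 (adjusted p = 4.78e-43), and SCUBE2, a secreted factor that helps release the ligand, which fell by 1.29 ± 0.038 (adjusted p = 1.96e-33). GPC3 was at 362 ± 5.82 CPM (SD, n = 3) in hHAR123, 91.7 ± 3.8 CPM in HAR123-KO, 333 ± 7.15 CPM in cHAR123 and 354 ± 8.47 CPM in mHAR123 neuroectoderm. SCUBE2 was at 155 ± 2.48, 61.1 ± 1.21, 173 ± 1.25 and 154 ± 2.97 CPM in the same order. SMO, the Smoothened gene, was at 148 ± 2.62 CPM in hHAR123 and 153 ± 3.30 CPM in HAR123-KO neuroectoderm, a log2 difference of 0.10 ± 0.034 (adjusted p = 0.0154).

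In ESCs none of the tested genes of these 4 lists was called with edgeR or DESeq2 in HAR123-KO, cHAR123 or mHAR123 relative to hHAR123 cells, and 11, 10 and 10 passed an unadjusted p under 0.05, where 29.7%, 36.9% and 38.5% of all genes did. In neuroectoderm none was called with either tool in cHAR123 or mHAR123 relative to hHAR123, and 13 and 12 passed an unadjusted p under 0.05, where 29% and 33.8% of all genes did. From ESCs to neuroectoderm 13 of 31 rose and none fell in hHAR123 cells, where 24.6% of all genes rose and 21.2% fell. In HAR123-KO, cHAR123 and mHAR123 cells 13, 11 and 12 of 31 rose and none fell. Of all genes tested there, 4734 of 21509, 4832 of 22049 and 4715 of 22173 rose. In either direction 41.1%, 42.7% and 41.9% of all genes were called. Among those that rose in hHAR123 cells were LRP2, an endocytic receptor that binds SHH (7.32 ± 0.054), SCUBE2 (6.37 ± 0.071), GPC3 (3.25 ± 0.037) and SUFU, the GLI-binding inhibitor (1.28 ± 0.049). Adjusted p for these were 7.11e-49, 7.85e-43, 1.05e-42 and 9.33e-25. In the difference of stage changes between HAR123-KO and hHAR123 cells, GPC3 (-1.94 ± 0.057) and LRP2 (-1.31 ± 0.12) were called lower and DISP1, the ligand exporter gene, higher (1.01 ± 0.094), with adjusted p of 2.51e-32, 1.83e-13 and 5.41e-13. Of 31 tested genes 1 was thus called higher and 2 lower, near the 7.87% of all genes called in that comparison.

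**Figure D5:**
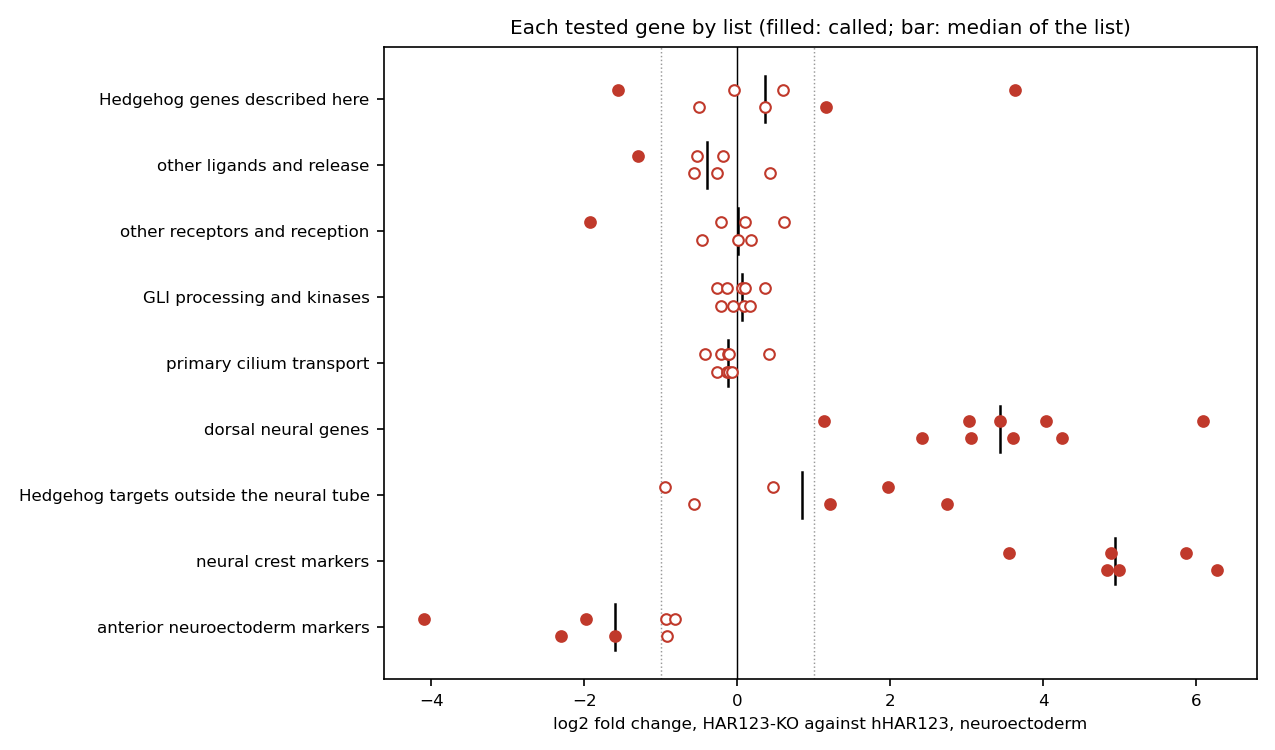
Log2 fold change of HAR123-KO against hHAR123 in neuroectoderm (horizontal axis) for each tested gene of 9 lists (vertical axis), the Hedgehog genes described here in the top row; filled points are called, open points are not, and black bars are list medians. The medians of the 4 lists of other pathway genes lie between -0.40 and 0.06, with GPC3 and SCUBE2 the filled points among them, while the dorsal neural list (median 3.44) and the neural crest list (median 4.94) lie to the right.

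Genes whose expression in the neural tube depends on position gave a different picture. Among genes of the ventral neural tube, the side that SHH patterns, NKX6-1 fell by 1.29 ± 0.11 on the log2 scale and SIM1 rose by 1.36 ± 0.31 in HAR123-KO relative to hHAR123 neuroectoderm (adjusted p = 9.01e-15 and 0.000217). Not all results of the ventral list are reported here, so NKX6-1 and SIM1 do not stand for the list. FOXA2, the floor plate gene, had at most 2 counts in any neuroectoderm library. All 9 measurable genes of 10 on the dorsal list rose (median 3.44), where 4.92% of all genes rose. In cHAR123 relative to hHAR123 neuroectoderm 8 of the dorsal list passed the filter on low counts. The tally of 9 thus includes entry to the test through the HAR123-KO libraries. PAX7 rose by 6.09 ± 0.073, WNT1 by 4.25 ± 0.057, WNT3A by 4.03 ± 0.21 and MSX1 by 3.61 ± 0.081 (adjusted p = 1.5e-50, 1.66e-48, 9.66e-23 and 1.28e-38). Of 9 genes named as Hedgehog targets in other tissues, 6 were measurable and 3 rose (median 0.84), where 4.92% of all genes rose. MYCN, a proliferation gene, rose by 2.74 ± 0.060, FOXL1 by 1.97 ± 0.36 and FOXC2 by 1.21 ± 0.38 (adjusted p = 6.11e-39, 5.92e-06 and 0.00614). The summed level of this list was not higher, at 456 to 486 CPM in hHAR123 and 445 to 457 CPM in HAR123-KO. In cHAR123 relative to hHAR123 neuroectoderm only 4 of the list passed the filter on low counts. Some of the 6 thus entered the test above through the HAR123-KO libraries, and the tally and the median include them.

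Markers of other cell types were examined in HAR123-KO relative to hHAR123 neuroectoderm. Of all genes tested in that comparison, 4.92% rose and 4.52% fell. All 6 neural crest markers rose (median 4.94), and their summed level was 35.02 to 36.8 CPM in hHAR123, 1203 to 1222 CPM in HAR123-KO, 106.1 to 112 CPM in cHAR123 and 157 to 161 CPM in mHAR123 libraries, with no marker at 3 counts or fewer throughout a group. FOXD3 rose by 6.28 ± 0.064, TFAP2B by 5.87 ± 0.051, SNAI2 by 5.00 ± 0.083 and ETS1 by 4.89 ± 0.052 (adjusted p = 1.14e-53, 1.68e-56, 2.31e-44 and 9.99e-53). Of 7 tested anterior neuroectoderm markers, 4 fell (median -1.60): RAX by 4.10 ± 0.19, SIX3 by 2.30 ± 0.19, LHX2 by 1.97 ± 0.31 and SOX1 by 1.60 ± 0.048 (adjusted p = 5.28e-25, 2.84e-15, 3.2e-07 and 5.43e-33). Their summed level was 1047 to 1071 CPM in hHAR123 and 511 to 520 CPM in HAR123-KO, and SIX6 had at most 3 counts in each of those libraries. The part of these markers in the results for PTCH1, HHIP, CDON and the GLI genes was not tested. Of 6 pluripotency markers, 2 rose and none fell, but the median of the list was slightly below 0 (-0.11). L1TD1 rose by 2.77 ± 0.068 and ZFP42 by 2.22 ± 0.087 (adjusted p = 7.39e-37 and 5.35e-28). The summed level was 141 to 150.5 CPM in hHAR123 and 211 to 222 CPM in HAR123-KO, against 2783 to 2801 CPM in hHAR123 ESCs. Of 3 tested mesoderm markers KDR and MEOX1 rose, by 1.34 ± 0.084 and 1.12 ± 0.28 (adjusted p = 1.49e-19 and 0.000657), at a summed level of 10.6 to 11.8 CPM in hHAR123 and 22.1 to 23.9 CPM in HAR123-KO, with TBXT, MIXL1 and HAND1 at 3 counts or fewer. Of the surface ectoderm and placode markers, GATA3 rose from 1 to 2 counts in hHAR123 to 24 to 29 counts in HAR123-KO (adjusted p = 7.85e-10). GATA3 entered this test through the HAR123-KO libraries alone. KRT14 and KRT5 were at 3 counts or fewer in both, and TP63 was at a count of 0 in hHAR123. A single endoderm marker, CXCR4, was tested and was not called (0.20 ± 0.047, adjusted p = 0.000266), and its list summed to 47.8 to 48.6 CPM in hHAR123 and 51.3 to 55.3 CPM in HAR123-KO, with SOX17 and GATA6 at 3 counts or fewer in both and GATA4 and EOMES so in HAR123-KO. The part of these lists in the results was not tested.

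The genes whose log2 CPM followed each member most closely over the 24 libraries were listed as a description. The 24 points fall into 2 stages, which dominate these values. PTCH1 was followed most closely by IRS4 (Pearson r = 0.996) and FLNC (0.995), and CDON by PRMT2 (0.997) and FGFR2 (0.996). BOC and GLI3 were each among the nearest of the other (0.999), beside SDK2 for BOC (0.999) and EPHA7 for GLI3 (0.998). GAS1 was followed by ZBTB10 and ZNF516 (both 0.998), GLI1 by PIEZO1 and IFITM2 (both 0.997), and GLI2, which was not called between the stages, by SALL2 and ALPL (both 0.965). HHIP had the lowest values, 0.895 with PLA2G4A and with EPAS1, and SHH was too low to be included.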

How the data were processed

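RNA was measured in 24 libraries of H9 cells, 3 for each of 8 conditions. The deposited values are raw read counts per gene: per the study's methods, the authors depleted ribosomal RNA, prepared directional paired-end libraries, aligned reads with STAR 2.5.2b to GRCh38 (Ensembl version 106) and summed exon counts with featureCounts. The strand setting and read filters are not given in the sources used here. Groups and replicate numbers came from the sample labels. An entry broken over 3 lines was left out, leaving 61551 genes, of which 61398 had a symbol. Library totals of 21022748 to 35198684 counts set the precision, and limits set by a count of 0 cover counting error only. No pair of replicates matched within sampling noise (chi-square per degree of freedom 1.41 to 5.53 over 24 pairs).

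Comparisons were fitted on the libraries they name with edgeR 4.0.16 (R 4.3.3; filterByExpr, TMM, glmQLFit, glmQLFTest), with Benjamini-Hochberg adjustment over all genes tested. A gene was called at adjusted p under 0.01 and absolute log2 fold change over 1, the study's thresholds; the study used DESeq2. Standard errors are the log2 fold change over the square root of F. Differences of stage changes are interaction contrasts over 4 conditions. CPM used library totals, and TPM the exon length in the table. Alternatives were DESeq2 1.42.0, its size factors, no filter, wider fits, a replicate block, other thresholds and leaving out each library. An exchange of the cHAR123 and mHAR123 neuroectoderm columns was added after the data were seen. The script was tested on simulated data.

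The 9 genes, the lists and the tests were chosen with earlier results of these data known. All 9 were described in every comparison. From each list at most the 4 called genes of largest change in HAR123-KO against hHAR123 neuroectoderm were named, and for each member the 2 genes of highest correlation. SMO, DHH, IHH, FOXA2, LRP2, SUFU, DISP1, CXCR4 and markers with at most 3 counts in every library of a group were named after their values were seen. Results of some listed genes are not reported here.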

Additional observations from a re-analysis of the deposited data

Results flagged for a closer look

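The effect of removing HAR123 differed between the stages for PTCH1 and HHIP, as tested by the interaction contrast of stage and genotype with edgeR. For PTCH1 the difference was -2.14 ± 0.058 on the log2 scale (adjusted p = 7.53e-34): relative to hHAR123, the log2 difference in HAR123-KO was 0.58 ± 0.047 in ESCs and -1.56 ± 0.037 in neuroectoderm. Every HAR123-KO library lay above every hHAR123 library in ESCs and below every one in neuroectoderm. Values of the difference ran from -2.19 to -2.10 with each of the 12 libraries left out.

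For HHIP the difference was 2.496 ± 0.48 (adjusted p = 2.51e-05), from 2.01 to 3.17 with each library left out. HAR123-KO was higher at both stages, by 1.13 ± 0.27 in ESCs and 3.63 ± 0.32 in neuroectoderm, and the value rests on 15 counts in all over the 3 hHAR123 neuroectoderm libraries. Neither difference was called for cHAR123 (-0.45 ± 0.054 for PTCH1, adjusted p = 2.43e-08, and 0.68 ± 0.64 for HHIP, adjusted p = 0.539) or mHAR123 (-0.56 ± 0.053, adjusted p = 1.7e-11, and 0.05 ± 0.55, adjusted p = 0.974).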

How the results depend on the processing

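Of 1791 fold changes of members recomputed under an alternative, 1782 kept their side of the thresholds and none of the called values changed sign. The number of members called in HAR123-KO against hHAR123 ESCs was 0 with DESeq2, where HHIP was at 1.12 (adjusted p = 0.0411), and 0 to 1 with each library left out. DESeq2 also lost HHIP between the stages in hHAR123 cells (-1.65, adjusted p = 0.0304). Leaving out each library gave 2 to 3 members in the stage difference of HAR123-KO, 5 to 6 and 6 to 7 between the stages in HAR123-KO and hHAR123 cells, and the same counts as in the report in all other comparisons. The exchange of the cHAR123 and mHAR123 neuroectoderm columns, added after the data were seen, gave 7 members called between the stages in cHAR123 cells in place of 6.

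With an adjusted p under 0.05 and no fold threshold, 6, 2 and 3 of 8 members passed in HAR123-KO, cHAR123 and mHAR123 ESCs against hHAR123 (19.3%, 26.1% and 29.3% of all genes), and 2 in each replacement genotype against HAR123-KO (15.6% and 13.5%). In neuroectoderm 6 passed in each genotype against hHAR123, of 7, 6 and 6 tested (53.4%, 17% and 22.9% of all genes), 7 and 6 of 7 in cHAR123 and mHAR123 against HAR123-KO (48% and 45.8%) and 1 of 7 in mHAR123 against cHAR123 (7.2%). Between the stages 8, 8, 7 and 8 of 8 passed in hHAR123, HAR123-KO, cHAR123 and mHAR123 cells (85.1%, 84.2%, 84.3% and 83.5%), and in the stage difference 7, 5 and 6 of 8 passed for HAR123-KO, cHAR123 and mHAR123 (41%, 15.2% and 20.2%). These shares of all genes are not matched to the members for depth.

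The replicate numbers did not pair the libraries: deviations of same-numbered libraries correlated at -0.024 to 0.037 at their lowest in each comparison. The fit with replicate block gave 3 members called in HAR123-KO against hHAR123 neuroectoderm and 2 in the stage difference, and it changed no call in any comparison. Over the 8 condition means in place of 24 libraries, 1 of the 2 nearest genes was shared for PTCH1, GLI1, GLI3, CDON and GAS1 and 0 for GLI2, HHIP and BOC. Depth limited SHH throughout and GLI1 and HHIP in neuroectoderm.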
